A study of Mus musculus with 32 samples.

Results

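The libraries described here are RNA-seq profiles of whole muscle from mice that carry an inducible DUX4 gene, taken late and early in the course of the disease. The members were chosen by label alone: 4 libraries of the group IDUX.16Weeks and 5 of the group IDUX.2Weeks, 9 of the 18 whole-muscle libraries and of the 32 libraries in all. Every mouse, WT controls included, received chow with doxycycline, the drug that switches such transgenes on. WT.2Weeks (5 libraries) and WT.16Weeks (4 libraries) serve here only to show the change between the same times without the DUX4 gene. The labels give neither the muscle taken, the sex or age of the mice, the promoter that drives DUX4, nor if the libraries are separate animals, so p-values measure the spread between these libraries, which may in part be technical. The human DUX4 transcript itself was not analysed here.

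DUX4 is a transcription factor of the early embryo that is silent in healthy muscle. In facioscapulohumeral muscular dystrophy it is expressed in rare muscle nuclei, where it turns on genes that muscle does not use and damages the fibre. Muscle under such damage typically gains inflammatory cells, matrix-producing fibroblasts and regenerating fibres, and a comparison of late with early muscle asks which of these programmes kept moving after the first weeks.

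The DUX4 libraries held 12787574 to 14065733 counts at 2 weeks and 17850945, 6071276, 14362741 and 18971713 at 16 weeks, so 3 counts in a library correspond to 0.158 to 0.494 CPM (counts as a share of the library's total, scaled to make libraries comparable) at 16 weeks. Levels below are CPM, with means ± SD over n = 5 libraries at 2 weeks and n = 4 at 16 weeks in both genotypes. All 9 libraries were muscle by their markers: the 18 fast-fibre genes summed to 68100 to 142000 CPM at 2 weeks and to 59300 to 100000 CPM at 16 weeks. Of 13 skin and hair genes, the keratin markers Krt5 and Krt14 were at or near 0 in these libraries. The 13 genes summed to 5.72 to 41.8 CPM at 2 weeks and to 18.5 to 92.8 CPM at 16 weeks. Dsp, a member of this list, is described below. A gene is said to rise, fall or change only where edgeR's quasi-likelihood test gave an adjusted p under 0.05 (Benjamini-Hochberg adjustment over the 15396 genes tested).

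One WT library at 2 weeks stood apart in a way that touches the results. WT.2Weeks replicate 4 lay outside the other 9 libraries of 2 weeks, on the side of the WT.16Weeks mean, in a set of genes. There were 304 such genes by at least 2-fold, of which 225 were higher and 79 lower. Single libraries of 16 weeks and DUX4 libraries of 16 weeks were not part of this definition. The same count for each other 2-week library was 2 to 18. Tmem147, which encodes a membrane protein of the endoplasmic reticulum, had 55.5, 49.8, 48.3, 57.7 and 58.1 CPM in the 2-week DUX4 libraries and no counts in the 4 libraries of 16 weeks, at least 235-fold lower when 3 counts per library are taken as the limit. It had none in WT.2Weeks replicate 4 either. Rorb, a nuclear receptor best known from brain and retina, had 0.458, 0.477, 0.952, 0.464 and 1.11 CPM at 2 weeks and 174, 179, 228 and 140 at 16 weeks, and 211 CPM in that 1 WT library at 2 weeks.

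**Figure D1:**
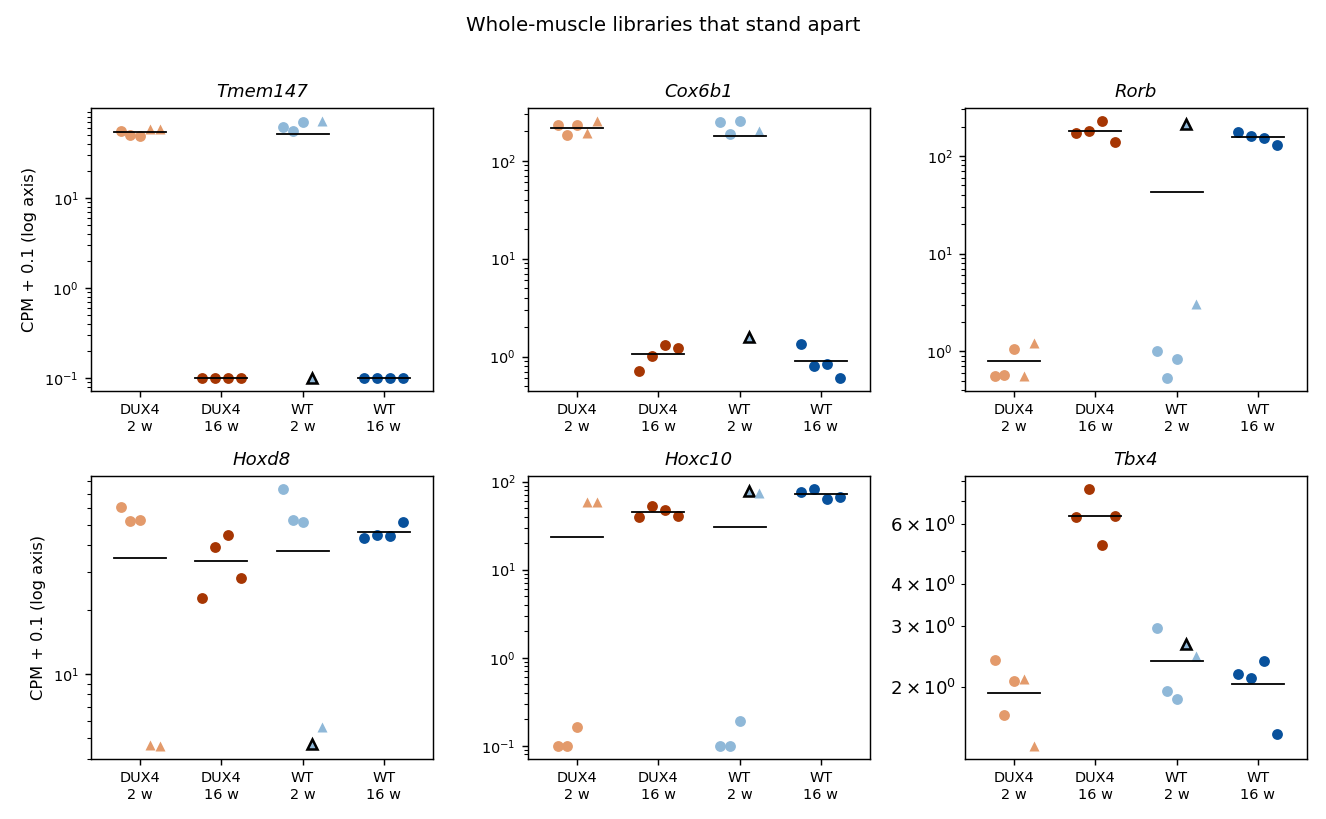
Levels (CPM + 0.1, log axis) of Tmem147, Cox6b1, Rorb, Hoxd8, Hoxc10 and Tbx4 in the 4 groups; points are libraries, bars are group means, triangles are 2-week replicates 4 and 5, and a black outline marks WT.2Weeks replicate 4. For Tmem147, Cox6b1 and Rorb that WT library sits with the 16-week libraries, for Hoxd8 and Hoxc10 the 2-week libraries split into replicates 1 to 3 and replicates 4 and 5, and Tbx4 is highest in late DUX4 muscle.

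Within that profile the DUX4 comparison called 169 of the 225 higher genes and 49 of the 79 lower ones. Over all genes tested it called 4.83% higher and 2.42% lower. By a looser definition, 3281 genes (21.3%) had WT.2Weeks replicate 4 outside the other 2-week libraries on the side of WT.16Weeks, and the remaining 12115 genes did not. The same looser count for each other 2-week library was 777 to 2466, so membership in this looser set does not by itself set a gene apart. Below, the shared profile means this looser set. This profile and time on the DUX4 gene cannot be told apart in the DUX4 libraries. By its definition no 2-week DUX4 library has it, and in genes such as Tmem147 and Rorb every 16-week DUX4 library does. The genes described below lie outside it unless the profile is named beside them. The largest changes by the naming rule mostly belonged to it: Cox6b1, a subunit of cytochrome oxidase, had 229, 181, 229, 190 and 254 CPM at 2 weeks and 0.612, 0.915, 1.21 and 1.12 at 16 weeks, and Bmt2 had 33.8, 37.2, 40.2, 39.9 and 42.4 and then 669, 496, 855 and 369.

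The 2-week libraries also divided by body position. Hoxd8 and Hoxc10 are homeobox genes that keep, in adult tissue, a record of where along the body the cells arose. Hoxd8 was at 60.8, 52.2 and 52.4 CPM in DUX4 replicates 1 to 3 at 2 weeks and at 4.56 and 4.49 in replicates 4 and 5, while Hoxc10 was at 0, 0 and 0.0635 CPM and then at 59.2 and 58.5. All 4 DUX4 libraries of 16 weeks held both, with Hoxd8 at 22.7, 39.3, 44.7 and 28.1 and Hoxc10 at 39.7, 52.8, 47.3 and 41 CPM. The muscle sampled and time can therefore not be told apart for genes that differ between muscles. Of the called genes, 1105 could be compared with each set of 2-week libraries alone, and all 1105 kept their direction against both sets. Of these, 720 were called against replicates 1 to 3, 316 against replicates 4 and 5, and 269 against both. These genes were picked by a fit that held both sets, and each set was compared with the same 4 late libraries. Agreement in direction was thus largely built in and does not tell time from the muscle sampled.

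Between 2 and 16 weeks, 1116 genes changed in DUX4 muscle, 7.25% of those tested, with 744 higher (4.83%) and 372 lower (2.42%). The median log2 change over all genes was -0.006. In 978 of the 1116 the 4 late libraries did not overlap the 5 early ones, which was so for 2048 of all genes tested (13.3%). Outside the shared profile, 572 of 12115 genes changed (4.72%), 351 higher and 221 lower. In WT muscle 2091 genes changed (13.6%), 1216 higher (7.9%) and 875 lower (5.68%). Both genotypes shared 344 changed genes, 30.8% of the DUX4 list and 16.5% of the WT list, and 332 of them moved the same way. Without IDUX.16Weeks replicate 3 the DUX4 count was 682, and without replicate 1 it was 737. In a fit with a term for the shared profile, the DUX4 count was 2. Within the DUX4 libraries that term is the same as time, and its size is set by 1 WT library, WT.2Weeks replicate 4. The small count is therefore largely built into that fit and is no measure of single calls.

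**Figure D2:**
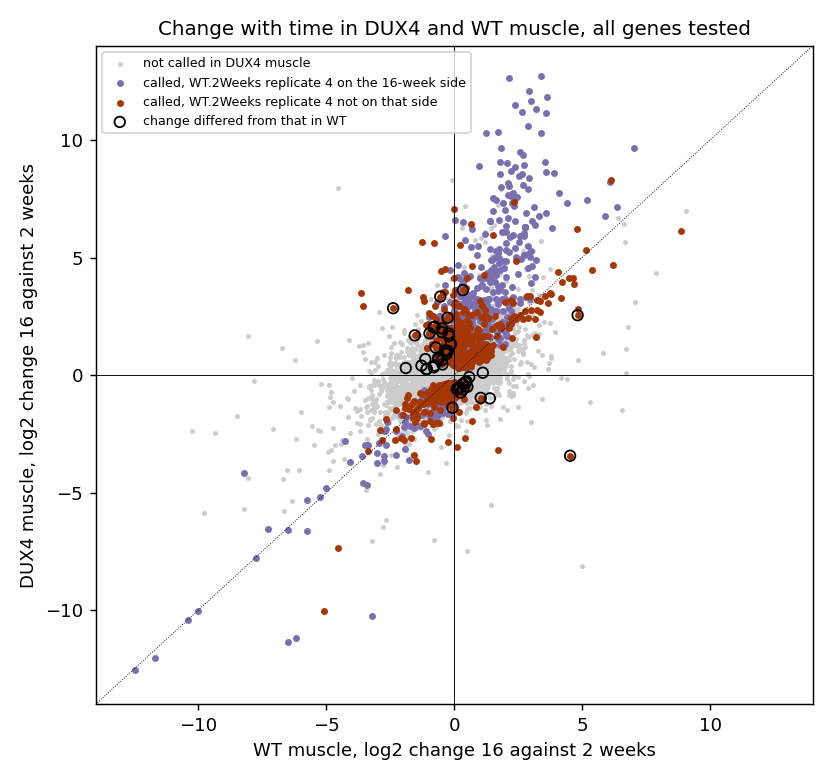
Change from 2 to 16 weeks (log2) in WT muscle (x axis) against DUX4 muscle (y axis) for the 15396 genes tested; colours mark genes called in DUX4 muscle by the side on which WT.2Weeks replicate 4 lies, grey points were not called, black circles mark the 46 genes whose change differed between the genotypes, and the dotted line is equal change. Genes of the shared profile reach the largest changes, and the circled genes lie off the dotted line.

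Of 6 genes that respond to DUX4 in mouse muscle cells, 1 rose and none fell between 2 and 16 weeks, against 4.83% and 2.42% of all genes tested. The summed level of the 6 was 450 to 924 CPM at 2 weeks and 470 to 562 at 16 weeks. Sord, which encodes sorbitol dehydrogenase, had 406, 571, 421, 352 and 637 CPM at 2 weeks and 342, 338, 355 and 332 at 16 weeks (log2 change -0.48, SE 0.17, adjusted p = 0.0967), against 69.3 ± 11.9 CPM and 95 ± 14.8 CPM in WT muscle. Wfdc3, an antiprotease-like gene that WT muscle hardly uses, had 62.2, 90.7, 41.2, 17.7 and 114 CPM and then 46.2, 33.4, 53.8 and 50.1 (log2 change -0.50, SE 0.42, adjusted p = 0.541). The late libraries for Wfdc3 lay inside the wide range of the early ones, and IDUX.2Weeks replicate 4 was the lowest of the early libraries for both genes.

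Serpinb6c was the exception. This serine protease inhibitor gene (chromosome 13, 33879816 to 33905708, GRCm38) had 2.55, 2.86, 0.762, 1.08 and 8.09 CPM in the 5 early libraries and 18.6, 14.6, 19.4 and 20.2 in the 4 late ones, which did not overlap. It rose from 3.07 ± 2.95 CPM to 18.2 ± 2.48 CPM (log2 change 2.57, SE 0.51, adjusted p = 0.00651) and was called in each of the 9 fits that left out 1 DUX4 library. WT muscle had 0.0347 ± 0.0477 CPM and 0.251 ± 0.206 CPM, and the difference between the changes was not called (adjusted p = 0.944). Reads from near-identical members of the Serpinb6 family could be split between them by the counting.

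None of another 10 genes that were at or near 0 in WT muscle passed the test between 2 and 16 weeks, and their summed level was 83 to 319 CPM at 2 weeks and 137 to 184 at 16 weeks. This list was drawn up from earlier results on these libraries, so its high level in DUX4 muscle is not independent evidence. Agtr2, an angiotensin receptor of fetal tissue, had 78.4, 165, 45.3, 41.8 and 97.2 CPM and then 33.9, 47.4, 43.5 and 19.2 (log2 change -1.25, SE 0.48, adjusted p = 0.136). Entpd3, an ectonucleotidase, had 37, 53.3, 17.2, 13.2 and 62.1 CPM and then 53.7, 43.9, 67.9 and 60.9 (log2 change 0.63, SE 0.41, adjusted p = 0.414). The growth factor gene Areg (amphiregulin) had 10.2 ± 8.3 CPM at 2 weeks and 6.55 ± 3.14 CPM at 16 weeks, and Pth, which encodes parathyroid hormone, 7.15 ± 1.95 CPM and 5.11 ± 1.14 CPM.

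Krt8 and Il1f9, both among the largest rises outside the shared profile, stood below 2 CPM in all 9 WT libraries and rose in DUX4 muscle. Krt8, an intermediate filament gene of simple epithelia, had 10.2, 8.7, 4.51, 2.09 and 7.05 CPM at 2 weeks and 95.9, 39.6, 64.7 and 92.6 at 16 weeks (log2 change 3.49, SE 0.58, adjusted p = 0.00259), and 0.293 ± 0.16 CPM in WT muscle at 16 weeks. Il1f9 encodes interleukin 36 gamma, an inflammatory cytokine of barrier epithelia, and had 3.34, 1.85, 1.21, 0.464 and 1.45 CPM and then 12.4, 15.4, 26.8 and 13.4 (log2 change 3.34, SE 0.47, adjusted p = 0.00103). Its change differed from that in WT muscle (log2 difference 3.88, SE 0.76, adjusted p = 0.0379), a call that held in 3 of the 18 fits that left out 1 library of either genotype. In all 4 late libraries both genes were above every early library. Dsp (desmoplakin, a protein of cell junctions, named here after its values were seen) ranged from 1.32 to 33.1 CPM early and from 13.9 to 81 late and was not called (log2 change 2.05, SE 0.73, adjusted p = 0.105); it is on the lower side of the shared profile.

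Cdkn2a (chromosome 4, 89274471 to 89294653, GRCm38), which encodes the p16 and ARF inhibitors of the cell cycle and is a common marker of senescent cells, was at 0.327, 0, 0.19, 0 and 0 CPM at 2 weeks and at 3.16, 3.66, 3.88 and 2.71 at 16 weeks (log2 change 4.87, SE 0.74, adjusted p = 0.00286). It stayed at 0.0357 ± 0.0415 CPM in WT muscle at 16 weeks, and the difference of the changes was not called (adjusted p = 0.892). Of 22 p53 target genes 1 changed, against 7.25% of all genes tested, or 3 with the term for the 2 sets of 2-week libraries. Ccng1 (cyclin G1) fell from 2680 ± 270 CPM to 1660 ± 136 CPM (log2 change -0.69, SE 0.15, adjusted p = 0.0114), with every late library below every early one, and remained above the 1130 ± 201 CPM of WT muscle. Of 28 cell cycle genes 3 fell and none rose, against 2.42% and 4.83% of all genes. The kinesin gene Kif11 had 3.13 ± 0.947 CPM and then 1.31 ± 0.468 CPM (log2 change -1.22, SE 0.34, adjusted p = 0.0396), a call that held in 3 of 9 such fits.

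**Figure D3:**
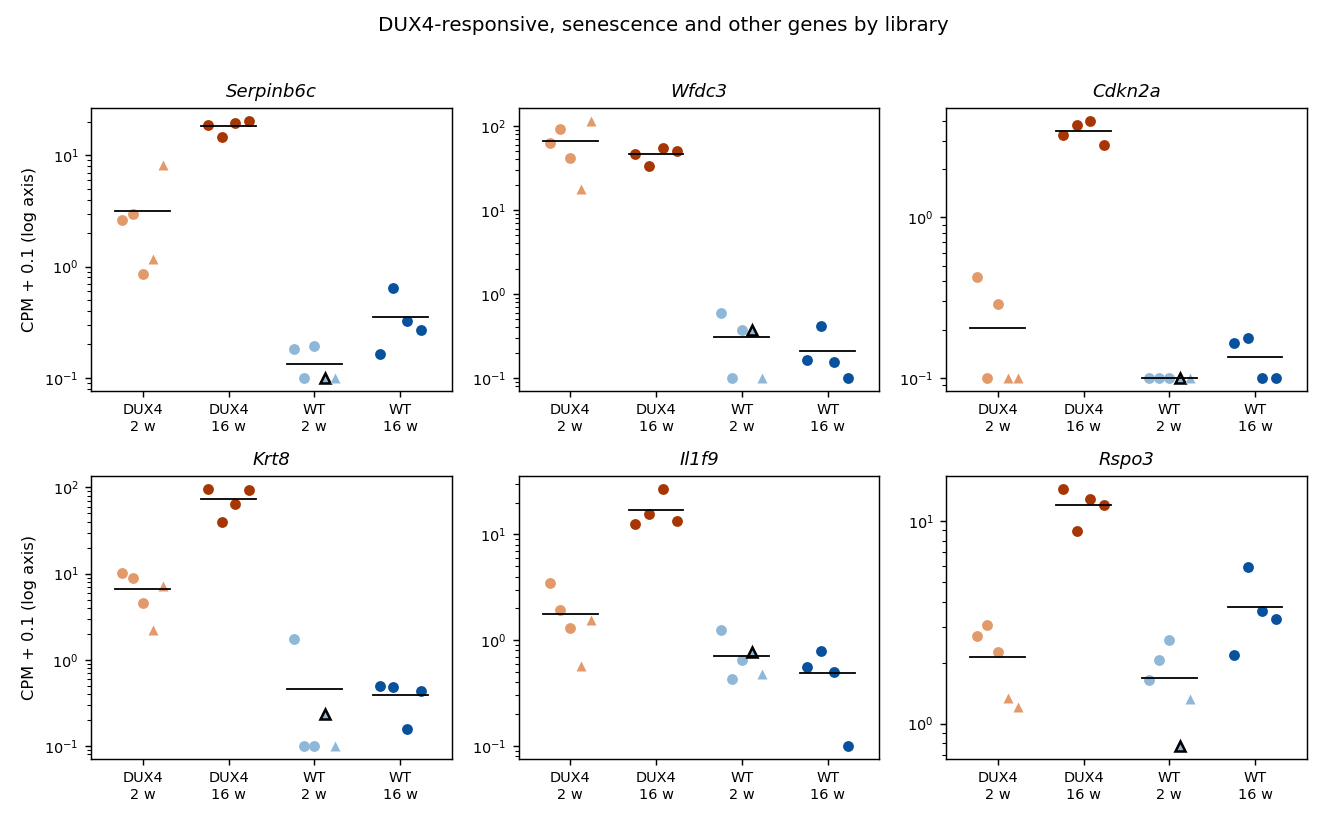
Levels (CPM + 0.1, log axis) of Serpinb6c, Wfdc3, Cdkn2a, Krt8, Il1f9 and Rspo3 in the 4 groups; points are libraries, bars are group means, triangles are 2-week replicates 4 and 5, and a black outline marks WT.2Weeks replicate 4. The late DUX4 libraries lie above the early ones except for Wfdc3, where they lie inside the early range.

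Slow, oxidative fibres contract slowly and resist fatigue, and they use their own isoforms of myosin, troponin and the calcium pump. Of 15 slow-fibre genes tested, 9 rose and none fell in DUX4 muscle, against 4.83% and 2.42% of all genes. The median log2 change of the 15 was 1.98, against -0.006 over all genes. WT muscle showed 10 rises among the same 15 genes with a median of 2.21, against 7.9% of all genes that rose there. No gene of the list passed the test of the difference between genotypes. Summed over the list, the DUX4 libraries held 5090 to 6980 CPM at 2 weeks and 9280 to 15800 at 16 weeks.

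Myl3, the slow essential myosin light chain (chromosome 9, 110741861 to 110769798, GRCm38), had 107, 70.8, 72.3, 61.2 and 18.7 CPM early and 709, 645, 341 and 689 late (log2 change 3.17, SE 0.40, adjusted p = 0.000646). Myl2, the slow regulatory light chain, had 144, 85.3, 75.5, 36.7 and 14.3 and then 1130, 837, 470 and 753 (log2 change 3.49, SE 0.74, adjusted p = 0.00899). Atp2a2, the slow and cardiac calcium pump, had 351, 329, 277, 130 and 167 and then 2060, 1610, 1090 and 1640 (log2 change 2.67, SE 0.48, adjusted p = 0.00394). For each of the 3 the late libraries lay wholly above the early ones, IDUX.16Weeks replicate 3 was the lowest of the late ones, and the call held in all 9 fits without 1 library. Tpm3, a slow tropomyosin, Myh7b and Myh6 likewise held in all 9, with log2 changes of 2.76, 1.98 and 3.94.

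Myh7, the slow myosin heavy chain that defines the type I fibre, went from 434, 292, 204, 114 and 9.33 CPM to 2580, 2780, 1410 and 2400 (log2 change 3.44, SE 0.997, adjusted p = 0.0461), with IDUX.2Weeks replicate 5 at 9.33 far below the others. Its call was lost in each of the 9 fits without 1 library, where the highest adjusted p was 0.0938; Tnnc1 was called in 1, Myoz2 in 3 and Tnnt1 in 4 of them. The list's count was 5 without IDUX.2Weeks replicate 2, 3 or 4 or IDUX.16Weeks replicate 1. It was 9 with a term that separates the sets of 2-week libraries, 10 against replicates 1 to 3 alone and 8 against replicates 4 and 5 alone. The count was 0 in the fit with the profile term, which called 2 of all genes tested. Myh6 and Myh7 are neighbours with long shared stretches, so reads could be split between them. The early levels also followed the split by position genes. Myh7 averaged 310 CPM in DUX4 replicates 1 to 3 at 2 weeks and 61.6 in replicates 4 and 5. In WT muscle at 2 weeks it had 143, 304 and 486 CPM and then 9.33 and 9.99. Each called gene of the list except Myoz2 (116 and 121 CPM) averaged lower in early DUX4 replicates 4 and 5, Tnnt1 for example with 155 and 22 CPM. Whether muscles of different fibre type were sampled at the 2 times was not tested, and the labels do not give the muscle.

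Of 18 fast-fibre genes tested, 1 fell and none rose, a share near the 7.25% over all genes. Mylpf, the fast regulatory light chain, went from 4720 ± 1640 CPM to 2150 ± 622 CPM (log2 change -1.14, SE 0.32, adjusted p = 0.0376; called in 4 of 9 fits without 1 library). Myh4, the myosin of the fastest fibres, had 19900, 17200, 22800, 39000 and 18900 CPM and then 8250, 23900, 17600 and 13700, and was not called (log2 change -0.57, SE 0.28, adjusted p = 0.259). Car3, the carbonic anhydrase of slow fibres, rose in DUX4 muscle from 765 ± 186 CPM to 2400 ± 544 CPM (log2 change 1.65, SE 0.26, adjusted p = 0.00216). In WT muscle it stood at 3080 ± 639 CPM and 2690 ± 1200 CPM, and the changes differed (log2 difference 1.85, SE 0.38, adjusted p = 0.0446). Car3 was named after its values were seen.

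**Figure D4:**
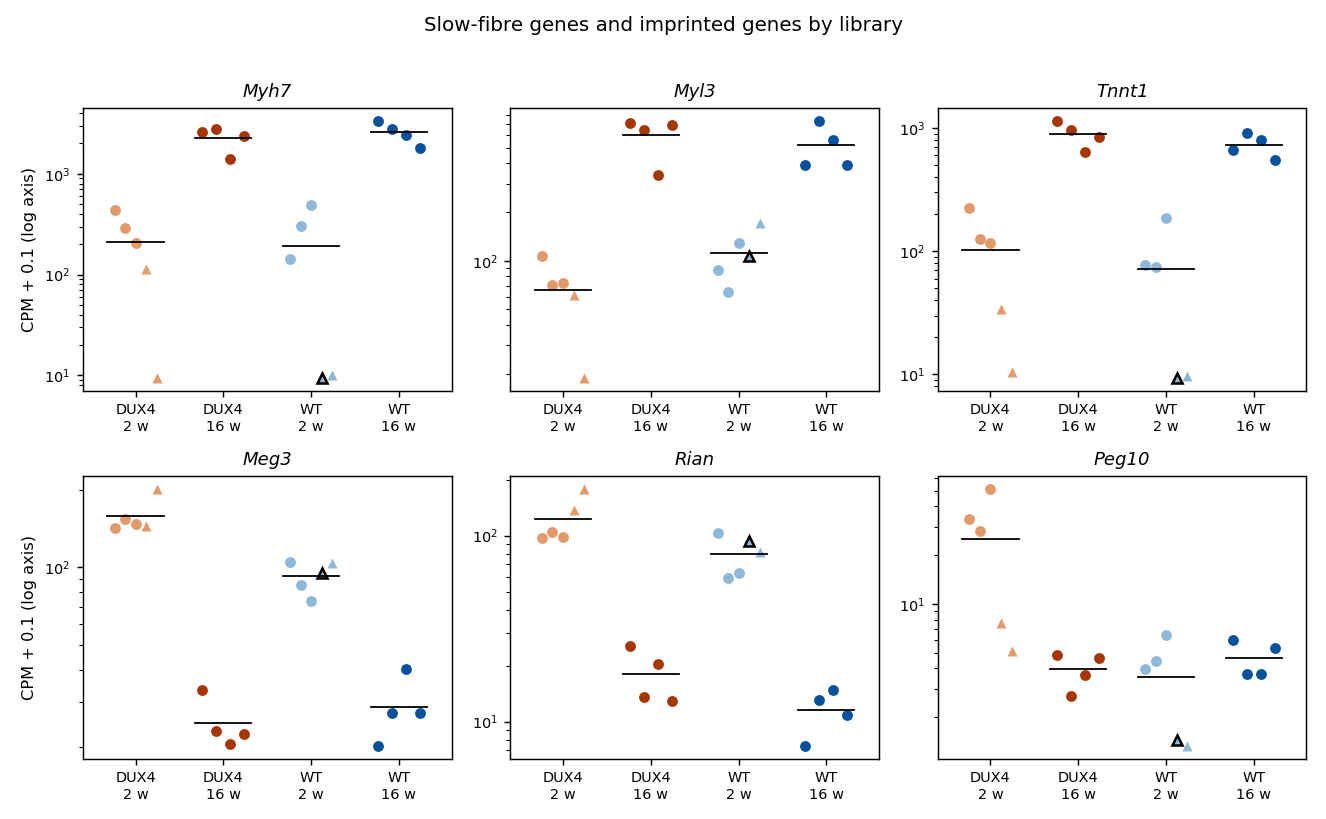
Levels (CPM + 0.1, log axis) of the slow-fibre genes Myh7, Myl3 and Tnnt1 and the imprinted genes Meg3, Rian and Peg10 in the 4 groups; points are libraries, bars are group means, triangles are 2-week replicates 4 and 5, and a black outline marks WT.2Weeks replicate 4. The slow-fibre genes were higher and Meg3 and Rian lower at 16 weeks in both genotypes, while Peg10 was highest in DUX4 replicates 1 to 3 at 2 weeks.

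Imprinted non-coding RNAs of the Dlk1-Dio3 region fell in all late DUX4 libraries. These RNAs are expressed from the maternal chromosome, are high in fetal and young muscle and decline as the animal matures. Meg3 (chromosome 12, 109541001 to 109571726, GRCm38) had 142, 154, 147, 144 and 201 CPM in the early libraries and 33.1, 23, 20.5 and 22.4 in the late ones (log2 change -2.67, SE 0.20, adjusted p = 3.22e-06). Rian, from the same cluster, had 96.8, 104, 98.5, 137 and 178 and then 25.3, 13.4, 20.2 and 12.8 (log2 change -2.77, SE 0.28, adjusted p = 9.01e-05). Mirg, the host of a microRNA cluster, had 6.08, 6.26, 5.59, 5.96 and 6.98 and then 1.13, 0.457, 0.89 and 1.16 (log2 change -2.69, SE 0.39, adjusted p = 0.00135). The late and early libraries did not overlap for any of the 3. Meg3 and Rian were the 2 genes called in the fit with the profile term, which rests on 1 WT library and does not rank calls.

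Rtl1, the retrotransposon-derived gene of the same region that is expressed from the paternal chromosome, fell from 1.07 ± 0.262 CPM to 0.294 ± 0.0982 CPM (log2 change -1.83, SE 0.40, adjusted p = 0.0102); whether counting used strand is not given in the sources used here, so its antisense transcript cannot be separated from it. In WT muscle all 4 fell too: Meg3 from 92.6 ± 13.3 CPM to 28.6 ± 8.28 CPM, Rian from 79.9 ± 19.1 CPM to 11.4 ± 3.2 CPM, and Mirg and Rtl1 by log2 changes of -2.08 and -1.45. None of the 4 differences between the genotypes passed the test. Of the 15 postnatal growth genes tested, 2 fell and 1 rose in DUX4 muscle, against 2.42% and 4.83% of all genes. Igf2bp2 was the riser and a gene of the shared profile. In WT muscle 8 of the list fell, against 5.68% of all genes. With the term for the 2 sets of 2-week libraries 4 fell and 1 rose in DUX4 muscle. Igf2, the fetal insulin-like growth factor, had 356, 538, 220, 100 and 367 CPM and then 282, 178, 223 and 199 in DUX4 muscle (log2 change -0.52, SE 0.38, adjusted p = 0.48). H19, its imprinted neighbour, had 7080, 7400, 5720, 4010 and 8760 and then 4340, 3370, 3630 and 3430 (log2 change -0.84, SE 0.38, adjusted p = 0.217), against 3710 ± 1340 CPM and 1140 ± 867 CPM in WT muscle; both genes are on the lower side of the profile.

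Other falls outside the profile included developmental and membrane genes, taken from the largest falls when the naming rule was repeated over the genes outside it. Osr2, a transcription factor of limb and palate connective tissue, fell from 10.9 ± 4.28 CPM to 1.56 ± 0.377 CPM (log2 change -2.78, SE 0.40, adjusted p = 0.00133). Sim1, a transcription factor best known from the hypothalamus, fell from 8.87 ± 3.67 CPM to 1.71 ± 0.665 CPM (log2 change -2.31, SE 0.39, adjusted p = 0.00285), and Capn6, a calpain without protease activity, fell from 11.8 ± 4.86 CPM to 3.51 ± 1.4 CPM (log2 change -1.72, SE 0.36, adjusted p = 0.00891). Each was called in all 9 fits without 1 library, and in WT muscle each fell as well, by log2 changes of -2.31, -2.29 and -1.45. Aqp4, the water channel of fast fibre membranes, had 450, 669, 371, 403 and 579 CPM and then 190, 144, 202 and 201 (log2 change -1.42, SE 0.22, adjusted p = 0.00178), without overlap. Peg10, an imprinted gene of the placenta, had 33.3, 28.2 and 51 CPM in replicates 1 to 3 at 2 weeks, 7.5 and 5.04 in replicates 4 and 5, and 4.71, 2.59, 3.56 and 4.56 late (log2 change -2.67, SE 0.61, adjusted p = 0.0133). Its early level thus followed the split by position genes.

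Of 26 position genes tested, 3 rose and none fell in DUX4 muscle, against 4.83% and 2.42% of all genes. With the term that separates the 2 sets of 2-week libraries, an alternative added after the data were seen and drawn from position genes themselves, 10 rose and 4 fell, Hoxd8, Hoxd9, Hoxc9 and Hoxc10 among them. That fit called 1027 of all 15396 genes higher and 485 lower. En1, which marks the underside of the limb, rose from 0.719 ± 0.339 CPM to 7.43 ± 1.12 CPM (log2 change 3.36, SE 0.32, adjusted p = 6.45e-05), and Hoxd10, a gene of the outer limb, from 0.0567 ± 0.0636 CPM to 1.62 ± 0.687 CPM (log2 change 4.67, SE 0.66, adjusted p = 0.00103). Both rose in WT muscle too, to 9.14 ± 3.5 CPM and 4.34 ± 1.47 CPM. Tbx4, the hind limb transcription factor (chromosome 11, 85886422 to 85916097, GRCm38), had 2.29, 1.55, 1.97, 2.01 and 1.24 CPM early and 6.17, 7.47, 5.08 and 6.2 late (log2 change 1.77, SE 0.22, adjusted p = 0.000646). In WT muscle it was at 2.27 ± 0.475 CPM and 1.93 ± 0.402 CPM, and the changes differed (log2 difference 1.99, SE 0.32, adjusted p = 0.0191) in all 18 fits that left out 1 library.

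Of 27 fibrillar collagens and partners, 1 rose and 1 fell in DUX4 muscle (median log2 change -0.26), a share near the 7.25% over all genes. In WT muscle 14 fell and none rose (median -1.42), against 5.68% of all genes that fell there. With the term for the 2 sets, 2 rose and 2 fell in DUX4 muscle. The difference of the changes was above 0 for 26 of the 27, with a median of 1.32, but none passed the test. Col1a1, the main chain of type I collagen, had 264, 369, 368, 626 and 345 CPM and then 261, 139, 87.3 and 285 (log2 change -1.03, SE 0.37, adjusted p = 0.104), while WT muscle went from 356 ± 86.9 CPM to 42.8 ± 17.5 CPM (log2 change -3.06, adjusted p = 0.000596). One WT library, WT.16Weeks replicate 1, stood apart here, with a summed collagen level of 399 CPM against 935 to 997 in the other 3; without it 13 collagen genes fell in WT muscle and the median difference was 1.07.

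Dcn (decorin, a proteoglycan that binds collagen fibrils) was the riser, with 157, 161, 170, 168 and 98.5 CPM and then 336, 321, 328 and 449 (log2 change 1.25, SE 0.33, adjusted p = 0.0307), and Sparc, a matrix protein of growing tissue, the faller (log2 change -0.87, SE 0.26, adjusted p = 0.0488); each call held in 2 of 9 fits without 1 library. Of 14 basement membrane genes Lamc1 and Nid2 fell, and of 27 genes of matrix processing 2 fell, Serpinh1 among them, against 2.42% of all genes. Lamc1, Nid2 and Serpinh1 are in the shared profile. Serpinh1, the collagen chaperone, had 24.5 ± 8.81 CPM and then 3.11 ± 0.304 CPM (log2 change -2.99, SE 0.46, adjusted p = 0.00178) and fell in WT muscle too (log2 change -3.38). Myoc, a secreted glycoprotein, had 4.64, 5.66, 6.66, 7.66 and 1.87 CPM and then 33.2, 32.8, 32 and 46.8 (log2 change 2.77, SE 0.49, adjusted p = 0.00378), with all late libraries above all early ones.

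Of 10 bone and cartilage genes 2 rose and none fell, with 9 of the 10 above 0 and a median log2 change of 1.28, and of 9 tendon genes 2 rose and none fell, with 8 above 0 and a median of 1.17, against 4.83% of all genes that rose. When the 2 sets of 2-week libraries had a term of their own, the counts were 5 and 5, against 1027 of all 15396 genes that rose in that fit. Of the genes this added, Cilp2, Fmod, Kera and Tnmd were higher in early replicates 4 and 5 than in each of replicates 1 to 3. Kera, for example, had 7, 12 and 25 counts in replicates 1 to 3, 144 and 104 in replicates 4 and 5, and 261, 61, 54 and 320 late. Chrdl1, also added, split the other way. It had 39, 59 and 55 counts in replicates 1 to 3 and 30 and 17 in replicates 4 and 5. Comp, also added, had 6, 4 and 24 counts and then 69 and 23. For all of these added genes the muscle sampled and time cannot be told apart. Runx2, the master transcription factor of bone-forming cells, had 1.24, 1.43, 1.52, 1.16 and 1.17 CPM and then 3.11, 3.05, 3.37 and 2.89 (log2 change 1.24, SE 0.29, adjusted p = 0.0156), a narrow spread at both times and a call in all 9 fits without 1 library. Col10a1, the collagen of hypertrophic cartilage, went from 0.501 ± 0.197 CPM to 2.25 ± 0.434 CPM (log2 change 2.13, SE 0.62, adjusted p = 0.0458), a call that was lost in each of the 9 fits.

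Thbs4 (thrombospondin 4, a glycoprotein of tendon and of muscle under load; chromosome 13, 92751590 to 92794818, GRCm38) had 91.1, 63.4, 80, 76.4 and 96.7 CPM and then 258, 113, 147 and 216 (log2 change 1.17, SE 0.26, adjusted p = 0.0123). In WT muscle it was at 35.3 ± 12.8 CPM and 21.4 ± 4.66 CPM, and the changes differed (log2 difference 1.90, SE 0.38, adjusted p = 0.0438; called in 3 of 18 fits without 1 library). Without IDUX.16Weeks replicate 1, its highest library, the rise in DUX4 muscle had an adjusted p of 0.0508. Mkx, a tendon transcription factor, rose from 0.708 ± 0.217 CPM to 5.71 ± 0.524 CPM (log2 change 3.0, SE 0.49, adjusted p = 0.00232) and belongs to the shared profile. Fmod (fibromodulin, named after its values were seen) ranged from 4.78 to 55.3 CPM early and from 38.4 to 101 late and was not called (log2 change 1.90, SE 0.70, adjusted p = 0.114).

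Interferons are antiviral signals whose receptors activate transcription factors that bind a short repeated motif, the interferon-stimulated response element, near the start of their target genes. Of 36 interferon-response genes tested, 1 rose and none fell in DUX4 muscle (median log2 change 0.10), and 23 fell and none rose in WT muscle (median -1.18), against 7.25% of all genes called in DUX4 muscle and 5.68% that fell in WT muscle. With the term for the 2 sets of 2-week libraries, 3 rose and 1 fell in DUX4 muscle. The difference of the changes was above 0 for 35 of the 36, with a median of 1.25, and passed the test for 2, Ifit1 and Ifitm3. Summed over the list, DUX4 libraries held 318 to 386 CPM early and 365 to 476 late. WT libraries held 264 to 356 CPM at 2 weeks and 152 to 184 at 16 weeks, so at 16 weeks the genotypes did not overlap. Without WT.16Weeks replicate 1, 18 interferon genes fell in WT muscle, and the median difference was 1.08 with 2 called.

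Of 15 genes of class I antigen presentation tested, 1 rose in DUX4 muscle, against 4.83% of all genes, or 3 with the term for the 2 sets. In WT muscle 7 fell, against 5.68% of all genes. The difference was above 0 for all 15 (median 1.04) and passed the test for H2-D1, H2-T23 and B2m. B2m, the light chain of every class I molecule, was the firmest of these (log2 difference 1.13, SE 0.15, adjusted p = 0.00844) and was called in all 18 fits without 1 library. It had 83, 81.5, 76.9, 83.8 and 97.6 CPM early and 100, 98.5, 95.8 and 131 late in DUX4 muscle (log2 change 0.33, SE 0.11, adjusted p = 0.0744) and went from 93.7 ± 7 CPM to 53.9 ± 5.27 CPM in WT muscle. H2-D1, a classical class I heavy chain, had 88.8, 83.3, 84.7, 72 and 66.1 CPM and then 97.7, 102, 100 and 132 (log2 change 0.45, SE 0.13, adjusted p = 0.0428), a call that held in 1 of 9 fits. Reads could be split between the similar H2 genes.

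The motif core GAAANNGAAA, or TTTCNNTTTC when read on the other strand, was searched on both strands of RefSeq promoters (GRCm38.p6, 250 bases before to 50 after the start, overlapping matches counted once per gene). It was found for 1079 of 27025 genes (3.99%). Among the 37 interferon-response genes 27 had a promoter in that set and 19 of these held the core; among the 15 class I genes 13 had one and 3 held it, B2m, H2-T22 and H2-T23. Windows of 60 bases are shown for Ifit1, the interferon gene that rose, for Ifit3 and Isg15, which did not change in DUX4 muscle, and for B2m and H2-T23, whose changes differed between genotypes. Capitals mark the core, and each is written 5′ to 3′ on the gene's strand.
Ifit1 at chr19:34640760-34640819 (+): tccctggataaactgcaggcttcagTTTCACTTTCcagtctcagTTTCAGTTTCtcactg
Ifit3 at chr19:34583348-34583407 (+): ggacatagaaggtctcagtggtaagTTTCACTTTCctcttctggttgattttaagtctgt
Isg15 at chr4:156200856-156200915 (-): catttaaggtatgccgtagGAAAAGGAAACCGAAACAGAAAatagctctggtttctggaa
B2m at chr2:122147523-122147582 (+): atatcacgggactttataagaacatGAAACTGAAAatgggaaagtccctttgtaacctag
H2-T23 at chr17:36032791-36032850 (-): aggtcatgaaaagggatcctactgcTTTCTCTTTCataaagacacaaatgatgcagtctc

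Of the genes shown with the core, Ifit1 rose in DUX4 muscle while Ifit3 and Isg15 gave no call. Ifit1, which binds viral RNA and carries the core 2 times in the window above, had 3.79, 3.22, 4.38, 3.48 and 4.49 CPM early and 13.8, 9.76, 32.5 and 8.57 late (log2 change 2.06, SE 0.37, adjusted p = 0.0038); the late libraries lay above all early ones, with replicate 3 highest. In WT muscle it was at 6.3 ± 1.21 CPM and 3.85 ± 2.22 CPM (log2 difference 2.82, SE 0.54, adjusted p = 0.0379; called in 4 of 18 fits without 1 library). Ifit3, with the core 2 times in its promoter, had 4.84, 5.36, 6.73, 6.81 and 4.42 CPM and then 2.87, 7.78, 5.27 and 3.7 in DUX4 muscle (log2 change -0.22, SE 0.40, adjusted p = 0.812), and fell in WT muscle from 5.97 ± 2 CPM to 1.33 ± 0.944 CPM. Isg15, a ubiquitin-like protein, had 1.31, 1.55, 2.09, 1.55 and 2 CPM and then 1.98, 1.83, 3.94 and 1.77 (log2 change 0.49, SE 0.43, adjusted p = 0.577). Ifitm3, a membrane protein that blocks virus entry, had 66.8 ± 22.8 CPM and then 107 ± 18.4 CPM in DUX4 muscle and 31.2 ± 11.3 CPM and 14.3 ± 1.74 CPM in WT muscle (log2 difference 1.81, SE 0.35, adjusted p = 0.0379). Isg15 and Ifit3 are on the lower side of the shared profile.

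For markers of cell types, fewer cells and less RNA per cell cannot be told apart in these whole-muscle libraries. None of 26 macrophage genes, 7 class II genes, 17 complement genes or 7 neutrophil and mast cell genes passed the test in either direction. With the term for the 2 sets, the macrophage genes Gpnmb and Tyrobp and the complement receptor gene C5ar1 rose. The summed macrophage level was 120 to 384 CPM at 2 weeks and 162 to 640 at 16 weeks, with replicates 4 and 5 lowest early and replicate 4 highest late. Gpnmb, a marker of lipid-laden macrophages named after its values were seen, had 11, 5.42, 8.89, 1.32 and 1.45 CPM early and 5.42, 3.35, 87.6 and 184 late (log2 change 3.64, SE 1.20, adjusted p = 0.0806), so that 2 of the 4 late libraries were far above the rest and the other 2 were not. Of 15 T and NK cell genes 1 was expressed enough to be tested, and the 15 summed to 1.43 to 2.6 CPM early and 1.98 to 5.27 late.

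Of 19 genes of chemokines and their receptors 2 rose and none fell, with 11 above 0 and a median log2 change of 0.20. Of 6 B and plasma cell genes 1 rose and none fell, with 6 above 0 and a median of 1.31. The share over all genes that rose was 4.83%. The genes that follow are the called members of these lists. Jchain, the joining chain of secreted antibodies, had 0.458, 0.357, 0.508, 0.309 and 0.207 CPM and then 0.942, 1.52, 2.1 and 1.03 (log2 change 1.88, SE 0.39, adjusted p = 0.00773). Ccl21a, a chemokine of lymphatic vessels that draws T cells and dendritic cells, went from 2.1 ± 0.977 CPM to 9.19 ± 3.44 CPM (log2 change 2.14, SE 0.45, adjusted p = 0.00843); it has near-identical copies among which reads could be split. Cxcl14, a chemokine of fibroblasts, had 15.5 ± 4.72 CPM and then 34 ± 12.2 CPM (log2 change 1.14, SE 0.23, adjusted p = 0.00772). All 3 were called in all 9 fits without 1 library, with the late libraries above the early ones. In WT muscle none of the 3 passed the test.

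Calls among the other cells of muscle are to be read against the 7.25% over all genes. No gene of the 20 regenerating-fibre genes, the 14 mural cell genes or the 19 adipocyte genes passed the test. With the term for the 2 sets 1 regenerating-fibre gene, Igfn1, and 2 adipocyte genes, Lep and Retn, rose. Of 15 satellite cell genes Pax3 fell (log2 change -3.22, SE 0.88, adjusted p = 0.0357), from 3.73, 2.2 and 3.24 CPM in early replicates 1 to 3 and 0.464 and 0.138 in replicates 4 and 5 to 0.188, 0, 0.318 and 0.215 late, which again followed the split by position. Of 19 genes of fibro-adipogenic progenitors, the fibroblast-like cells that make muscle connective tissue, Dcn and Cxcl14 rose and Osr2 fell. Of 20 endothelial genes Pecam1 rose (log2 change 1.10, SE 0.28, adjusted p = 0.0276), as a gene of the shared profile. Of the 20 genes, 2, Pecam1 included, had a log2 change above 0 and the median of the list was -0.31.

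Of 39 genes of the TGF-beta and BMP pathway 4 rose and none fell, against 4.83% and 2.42% of all genes. Gdf11, a ligand of the activin branch, had 6.28, 6.08, 5.52, 10.1 and 8.57 CPM and then 27.5, 34.9, 48 and 37.8 (log2 change 2.34, SE 0.50, adjusted p = 0.00916). Tgfb3, a TGF-beta ligand in the shared profile, had 27.2, 32.5, 30.3, 30.4 and 32.8 and then 79.8, 58.9, 52.4 and 62.5 (log2 change 1.05, SE 0.15, adjusted p = 0.00124). Fst (follistatin, which binds and blocks activins and myostatin) went from 10.3 ± 2.75 CPM to 24.7 ± 10.4 CPM (log2 change 1.26, SE 0.36, adjusted p = 0.0428; called in 1 of 9 fits), and the receptor gene Bmpr1b from 6.34 ± 1.7 CPM to 10.9 ± 1.08 CPM (log2 change 0.78, SE 0.20, adjusted p = 0.027; called in 4 of 9).

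Of 17 Wnt pathway genes 4 rose and none fell, against the same 4.83% and 2.42%. Rspo3, an enhancer of Wnt signalling, had 2.62, 2.98, 2.16, 1.24 and 1.11 CPM and then 14.3, 8.84, 12.8 and 11.9 (log2 change 2.56, SE 0.36, adjusted p = 0.00103), and Dkk2, an inhibitor of Wnt receptors, 11.1, 3.57, 5.27, 2.86 and 1.73 and then 14.5, 24.1, 30.2 and 21 (log2 change 2.18, SE 0.48, adjusted p = 0.0104). For both, the late libraries lay above the early ones. The related Dkk3 went from 2.67 ± 1.16 CPM to 14.6 ± 8.8 CPM (log2 change 2.45, SE 0.58, adjusted p = 0.0172), with an adjusted p of 0.0713 without IDUX.16Weeks replicate 1. Wnt4, a ligand in the shared profile, rose from 19.8 ± 2.42 CPM to 44.2 ± 22.5 CPM (log2 change 1.16, SE 0.24, adjusted p = 0.00743). In WT muscle Rspo3, Dkk2 and Wnt4 rose too. Of 15 IGF genes Igfbp4, which binds insulin-like growth factors, rose from 29 ± 5.58 CPM to 56.3 ± 12.4 CPM (log2 change 0.96, SE 0.18, adjusted p = 0.00447), and Pappa, the protease that cleaves it, from 0.602 ± 0.264 CPM to 1.82 ± 1.08 CPM (log2 change 1.60, SE 0.43, adjusted p = 0.032; called in 5 of 9 fits).

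Of 23 glycolysis genes 2 fell and none rose, against 2.42% and 4.83% of all genes. Pgk1 (phosphoglycerate kinase) had 765, 598, 733, 1040 and 858 CPM and then 291, 480, 508 and 310 (log2 change -1.01, SE 0.21, adjusted p = 0.00773) and fell in WT muscle too (log2 change -1.05). Gpd1 had 483 ± 202 CPM and then 187 ± 65.3 CPM (log2 change -1.37, SE 0.34, adjusted p = 0.0221). Of 31 nuclear genes of oxidative phosphorylation Ndufa4 and Cox6c fell, both in the shared profile, against 2.42% of all genes. In WT muscle 18 of the list fell, against 5.68% of all genes. Without WT.16Weeks replicate 1, 8 of the list fell there, against 584 of the 15745 genes tested in that fit. Of 13 mitochondrially encoded genes 4 rose, all of the shared profile, and none of the 7 outside it changed. None of 21 genes of fatty acid use passed the test.

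Of 19 genes of denervation and the synapse Chrnd and Colq rose and Ache fell, against 4.83% of all genes that rose and 2.42% that fell. Ache, the acetylcholinesterase of the junction, had 191 ± 43.9 CPM and then 98.4 ± 23.8 CPM (log2 change -0.96, SE 0.28, adjusted p = 0.0456), against 27.9 ± 11.5 CPM in WT muscle at 16 weeks, and Chrnd, a subunit of the acetylcholine receptor, 10 ± 3.92 CPM and then 23.1 ± 8.22 CPM (log2 change 1.21, SE 0.32, adjusted p = 0.0284); these were called in 1 and 4 of 9 fits without 1 library, and Colq in 2. Both Ache and Chrnd have WT.2Weeks replicate 4 on the lower side. Of 20 atrophy and glucocorticoid target genes Gabarapl1, an autophagy gene, rose (log2 change 0.86, SE 0.21, adjusted p = 0.0209). WT muscle showed 9 rises in this list, against 7.9% of all genes. Without WT.16Weeks replicate 1, whose summed level was 9280 CPM against 2450 to 3160 in the others, the list showed 2 rises. In that fit 788 of 15745 genes rose in WT muscle. Of 19 genes of the integrated stress response Atf5, Phgdh and Nupr1 rose, against 4.83% of all genes, Atf5 within the shared profile. With the term for the 2 sets 5 rose and 1 fell. Phgdh, the first enzyme of serine synthesis, went from 7.6 ± 3.04 CPM to 17.9 ± 7.84 CPM (log2 change 1.23, SE 0.34, adjusted p = 0.0346; called in 5 of 9 fits), and Nupr1, a stress-induced regulator, from 3.08 ± 1.3 CPM to 6.48 ± 0.511 CPM (log2 change 1.07, SE 0.30, adjusted p = 0.0372; called in 3 of 9). The circadian, immediate early and heat shock lists had no call in DUX4 muscle.

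The change over time differed between DUX4 and WT muscle for 46 genes (0.299%), 29 with a more positive and 17 with a more negative change in DUX4 muscle. At an unadjusted p under 0.05 the change differed for 2721 genes. Of the 46, 45 lay outside the shared profile, as did 12115 of the 15396 genes tested. In profile genes WT.2Weeks replicate 4 lies toward WT.16Weeks and widens the WT spread. The definition thus makes them hard to call here, and the 45 say nothing about the profile. Among the more positive, Cep112it had 12.1, 9.83, 9.97, 6.5 and 14.4 CPM early and 39.7, 47, 96.8 and 46.2 late in DUX4 muscle, against 10.2 ± 3.16 CPM and 8.61 ± 1.81 CPM in WT muscle (log2 difference 2.70, SE 0.40, adjusted p = 0.0113). Pdlim2, an adaptor protein of the cytoskeleton, had 1.64, 1.07, 1.46, 1.39 and 0.898 and then 4.52, 3.66, 7.75 and 4.52, against 2.01 ± 0.524 CPM and 1.49 ± 0.483 CPM (log2 difference 2.46, SE 0.41, adjusted p = 0.02). Ripor2 had 2.94, 2.44, 2.86, 4.49 and 2.07 and then 9.04, 10.8, 15.2 and 6.98, against 8.98 ± 3.6 CPM and 6.47 ± 0.992 CPM (log2 difference 2.31, SE 0.41, adjusted p = 0.0303). In all 3 the late DUX4 libraries lay above the early ones while the WT means went slightly down.

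Among the more negative, Mss51, a gene of muscle mitochondria, rose in both genotypes but less in DUX4 muscle. It had 20.3, 15.5, 15.6, 8.2 and 9.61 CPM and then 68.2, 79.6, 77.3 and 99.4, against 10.1 ± 4.85 CPM and 286 ± 96.6 CPM in WT muscle (log2 difference -2.28, SE 0.44, adjusted p = 0.0379). Nek6, a mitotic kinase, fell from 34.5 ± 9.51 CPM to 17.6 ± 1.81 CPM while WT muscle rose from 6.56 ± 1.51 CPM to 13.5 ± 4.61 CPM (log2 difference -2.01, SE 0.34, adjusted p = 0.02), so that both groups moved toward each other. Vkorc1l1, an enzyme that recycles vitamin K, fell in DUX4 muscle from 8.23 ± 2.1 CPM to 3.18 ± 0.604 CPM and stood at 9.91 ± 0.858 CPM and 9.48 ± 0.579 CPM in WT muscle (log2 difference -1.32, SE 0.24, adjusted p = 0.0344). Csrnp1 and Ddi2 completed the named genes, with differences of -2.38 and -1.02; neither changed in DUX4 muscle, and both rose in WT muscle. The calls for Tbx4, B2m and Cep112it held in all 18 fits that left out 1 library, Pdlim2 in 17, Nek6 in 15, Ripor2 in 11, Vkorc1l1 in 7, Mss51 in 5, Ddi2 in 4 and Csrnp1 in 2. Leaving out 1 library gave counts from 8, when IDUX.16Weeks replicate 3 was omitted, to 57, when WT.16Weeks replicate 4 was.

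**Figure D5:**
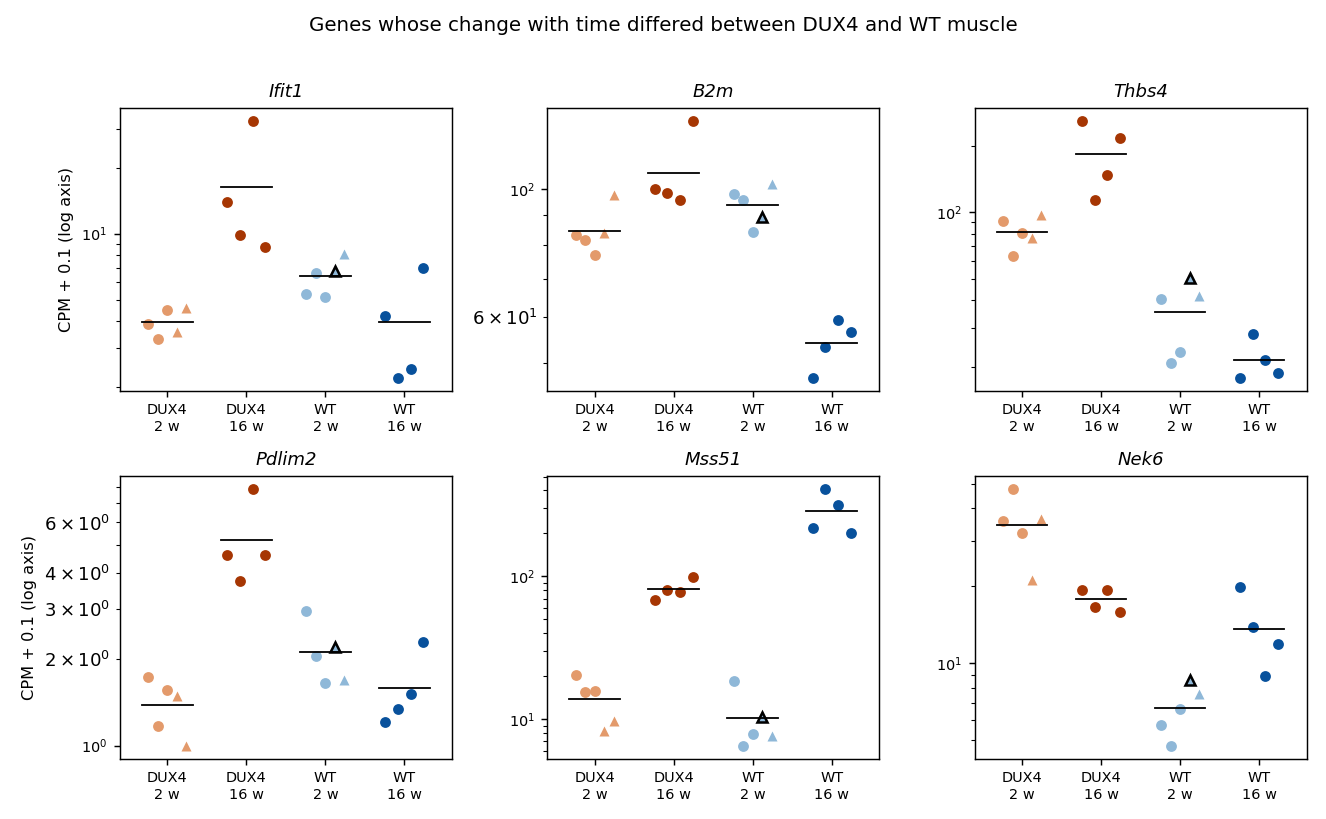
Levels (CPM + 0.1, log axis) of Ifit1, B2m, Thbs4, Pdlim2, Mss51 and Nek6, whose change from 2 to 16 weeks differed between DUX4 and WT muscle; points are libraries, bars are group means, triangles are 2-week replicates 4 and 5, and a black outline marks WT.2Weeks replicate 4. Late DUX4 libraries lie above early ones for Ifit1, Thbs4 and Pdlim2, B2m is lower in WT muscle at 16 weeks, Mss51 is higher late in both genotypes and Nek6 moves in opposite directions.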

How the data were processed

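RNA of whole muscle was sequenced as paired reads of 50 bases, from 500 ng of RNA per library and with the KAPA mRNA kit, per the labels' protocols. Salmon 0.6.0, CASAVA 1.8 and the mouse genome mm10 were used, per the submitters' processing notes; the annotation release, the step from transcripts to genes and the use of strand are not stated by those notes or labels. For every library the authors deposited expected counts (estimated counts) by Ensembl gene, not scaled to depth. Of the 43035 genes, 42459 were given a symbol with GENCODE's mouse annotation (GRCm38).

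After rounding to whole numbers, the 18 whole-muscle libraries were fitted together in R 4.3.3 by edgeR 4.0.16: 1 mean per group, TMM scaling, filterByExpr (minimum count 10, minimum total 15), robust quasi-likelihood fit, Benjamini-Hochberg adjustment over the 15396 genes tested and a threshold of 0.05. CPM values use the TMM-scaled totals, and a standard error is the log2 change divided by the square root of F. Intervals and limits from 3 counts cover counting error only. The fit was tested on simulated counts.

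The members and the 48 gene lists (847 genes, all matched) were chosen with earlier results of these data known. Genes were named by rule: the 12 called genes that rose most and the 12 that fell most, given 5 CPM or more in the higher group, no overlap between the DUX4 groups and an established symbol, up to 3 called genes per list, every gene of both DUX4 lists, and the 5 largest differences each way. The rule was repeated, with 20 rises and 20 falls, over the genes outside the shared profile, after the data were seen. Some genes that the rule names are not reported here. Promoters came from RefSeq (GRCm38.p6). DESeq2 1.42.0 and limma 3.58.1 (voom), other scalings, filters and fold thresholds, subsets of libraries and added terms were tried as alternatives.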

Additional observations from a re-analysis of the deposited data

Results flagged for a closer look

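Across the 126 genes with printed or plotted values, 250 groups of DUX4 libraries were examined for 1 library far from the rest, and 19 had one; chance gives about 1 in 20. IDUX.16Weeks replicate 3 accounted for 6 of them, IDUX.16Weeks replicate 4 for 4 and IDUX.2Weeks replicate 5 for 4. In IDUX.16Weeks replicate 3, Pou1f1, a pituitary transcription factor, was at 35.5 CPM against 1.52 to 4.99 in the other late libraries. The same library had Cep112it at 96.8, Phgdh at 29.6, Isg15 at 3.94, Pappa at 3.43 and, on the low side, H2-T22 at 13.9 CPM. IDUX.16Weeks replicate 4 had Dcn at 449, H2-D1 at 132, B2m at 131 and Myoc at 46.8 CPM, each above the other 3. In IDUX.16Weeks replicate 1, Atp1b4 was at 42.7 CPM, and in replicate 2 Ifitm3 was low at 79.6 CPM.

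Among the early libraries, IDUX.2Weeks replicate 5 had Serpinb6c at 8.09 and Meg3 at 201 CPM above the others, and Dcn at 98.5 and Myh7b at 2.76 CPM below them. Replicate 4 had Myh4 at 39000 CPM, replicate 3 had H2-T22 at 10.3 CPM, and replicate 2 had Mup9, a urinary protein gene of a family with near-identical copies, at 0.834 CPM. Mup9 reached 21.7 and 14.5 CPM in IDUX.16Weeks replicates 1 and 2 and 1.65 and 1.94 in replicates 3 and 4.

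The change from 2 to 16 weeks differed between DUX4 and WT muscle in edgeR's quasi-likelihood test for 17 of the printed genes. The log2 difference, DUX4 minus WT, was 3.88 for Il1f9, 2.82 for Ifit1, 2.70 for Cep112it, 2.46 for Pdlim2, 2.31 for Ripor2, 1.99 for Tbx4, 1.90 for Thbs4 and 1.85 for Car3. It was 1.81 for Ifitm3, 1.32 for H2-T23, 1.13 for B2m and 0.91 for H2-D1. On the negative side it was -2.38 for Csrnp1, -2.28 for Mss51, -2.01 for Nek6, -1.32 for Vkorc1l1 and -1.02 for Ddi2.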

How the results depend on the processing

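No paired analysis was possible because the labels number no replicates, and the numbers used here only name libraries in the order of deposit. The 1116 genes called in DUX4 muscle became 2207 with voom, 394 with a minimum fold change of 1.5, 165 with a term from Y-linked counts, 481 against 2-week replicates 4 and 5 alone, 572 over the genes outside the shared profile and 2 with the profile term; leaving out 1 library gave 682 to 941. DESeq2 gave 1599, RLE scaling 1103 and a term separating the early sets 1512. In WT muscle the 2091 became 3427 with voom, 1305 without a filter on low counts, 144 with the minimum fold change, 162 against 2-week replicates 4 and 5 alone, 514 in a fit of the WT libraries alone and 9 with the profile term, and 1251 to 2400 without 1 library. The 46 differences became 466 with DESeq2, 270 with voom, 19 without the filter, 0 with the minimum fold change (1035 at an unadjusted p under 0.05), 10 with the Y-linked term, 2 against 2-week replicates 4 and 5 alone, 137 with the term for the sets and 8 to 57 without 1 library. Uty, 1 of the Y-linked genes behind that term, had 0, 8, 3, 3 and 6 counts in early DUX4 libraries and 185, 13, 1035 and 97 late. The Y-linked term and time can therefore not be fully told apart in DUX4 muscle. The sex-linked genes summed to 12.3 CPM in WT.16Weeks replicate 4 and to 145 to 305 CPM in every other whole-muscle library. The cause of these shifts was not tested.

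The size of the profile term rests on WT.2Weeks replicate 4 alone. With this term, 9 log2 changes of DUX4 muscle turned sign: Tmem147 to 0.25, Hnrnpa2b1 to 0.13, Mylpf to 0.013, Pecam1 to -0.013, Igf2bp2 to -1.50, Ndufa4 to 1.49, mt-Nd3 to -0.45, mt-Co3 to -0.31 and mt-Atp6 to -0.74. No other alternative run turned the sign of a printed gene that was called. Of 92 printed genes called in DUX4 muscle, 57 were called in every fit without 1 library and 26 in fewer than 50% of them; 90 were called with DESeq2, 88 with voom, 72 against replicates 1 to 3 and 46 against replicates 4 and 5. Depth was lowest in IDUX.16Weeks replicate 2, where 3 counts are 0.494 CPM, so genes below about that level, such as Hoxd10 early and Jchain early, rest on few counts.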
